A study of Mus musculus with 6 samples.

Results

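Leiomodins, tropomodulins and tropomyosins are 3 families of proteins that bind the thin, actin-based filament. The 10 genes described here are the leiomodins *Lmod1*, *Lmod2* and *Lmod3*, the tropomodulins *Tmod1*, *Tmod2*, *Tmod3* and *Tmod4*, and the tropomyosins *Tpm1*, *Tpm2* and *Tpm3*. They were taken by name from the 25166 genes of the expression table, because *Lmod2* and *Tpm2* rise in Sirt6mKO. For these 2 genes the difference between the groups is therefore a description without a test, and the other 8 came in with their families. *Tpm4*, the remaining tropomyosin gene, was outside the selection and is set beside the others where the family is summed.

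The data are RNA-seq libraries of freshly sorted MuSCs, the PAX7-positive stem cells of skeletal muscle, from 3 Sirt6mKO and 3 control (Ctrl) samples of the C57BL/6 strain. Sirt6mKO mice are Pax7-ICNCre-positive and carry a floxed *Sirt6* gene, from which Cre recombinase removes exons 4 to 6. The reporting summary also lists a YFP reporter strain in the cross that made them. The labels call the controls wild type, while the legend on these animals gives them as Cre-negative *Sirt6* fl/fl, and gives males of 12 weeks for both groups. Cre was driven by the Pax7 promoter, which is active in the muscle lineage from development on, so the myofibers of these mice also descend from cells exposed to Cre. The methods sort MuSCs by surface markers or by a fluorescent reporter, and do not say which was used for each group here. Whether the sort gate differed between the groups is therefore not known. The labels do not say whether the libraries of a group came from separate animals. The methods speak of biological replicates, but the number they give for RNA-seq is 2, whereas the legend and the deposit have 3 per group. If the libraries do not come from separate animals, the p-values measure only the spread between these samples, which may be technical.

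In striated muscle, tropomyosins form coiled-coil dimers that run along the actin filament and, together with troponin, set when myosin can bind. Tropomodulins cap the pointed end of the filament and hold its length. Leiomodins are relatives of the tropomodulins that start new actin filaments and let the pointed end grow, and they are needed for thin filaments of full length in muscle. Each gene has a preferred tissue: *Lmod1* smooth muscle, *Lmod2* heart and skeletal muscle, *Lmod3* skeletal muscle, *Tmod1* heart, muscle and red blood cells, *Tmod2* neurons, *Tmod4* skeletal muscle, while *Tmod3* and *Tpm4* are widely expressed.

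Levels are given as signal, the reads of a gene divided by a size factor of its library and rounded by the authors. A single read stood for a signal of 0.729 to 1.792 and the libraries held 1267027 to 3208460 reads on genes, with the fewest in Ctrl replicate 3. Differences between the groups are log2 fold changes on log2(signal + 1), Sirt6mKO over Ctrl, from limma-trend on the 14227 genes whose mean signal reached 5. Genes were called when the p adjusted by Benjamini-Hochberg across the table was at most 0.05 and the groups differed by at least 2-fold. *Sirt6* itself stood at a signal of 19, 20 and 13 in Sirt6mKO, listed here and later from replicate 1 to replicate 3, against 18, 17 and 20 in Ctrl, so the groups overlapped. The log2 fold change of *Sirt6* was -0.10 (SE, the standard error, 0.29, limma-trend adjusted p = 0.913), or 0.09 without Sirt6mKO replicate 3. Since only the floxed exons are lost and the table gives no value per exon, this does not check the labels, and the groups are named as labelled.

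Of the 10 genes, 8 reached a mean signal of 5 and were tested. *Lmod2* and *Tpm2* passed both thresholds upward, where 1.57% of all tested genes were called higher and 1.02% lower. None of the 8 passed downward with limma-trend, at an unadjusted p under 0.05 or with limma voom on the recovered reads. *Tpm1* passed the adjusted p but not the 2-fold difference, and by the adjusted p alone 2.64% of all tested genes were higher and 1.88% lower. In *Lmod2*, *Tpm1* and *Tpm2* every Sirt6mKO library lay above every control library, a separation seen upward in 11.1% and downward in 10.1% of all tested genes. Because the selection was made on this contrast, nothing about the families is read from these counts. The median log2 fold change was 0.30 over the 6 tested genes other than *Lmod2* and *Tpm2*, and 0.64 with these 2, whose rise was the reason for the selection. Over all tested genes it was 0.00. The plot of signal by library shows the 3 separated genes and the large distance of *Lmod2* from the other leiomodins.

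**Figure D1:**
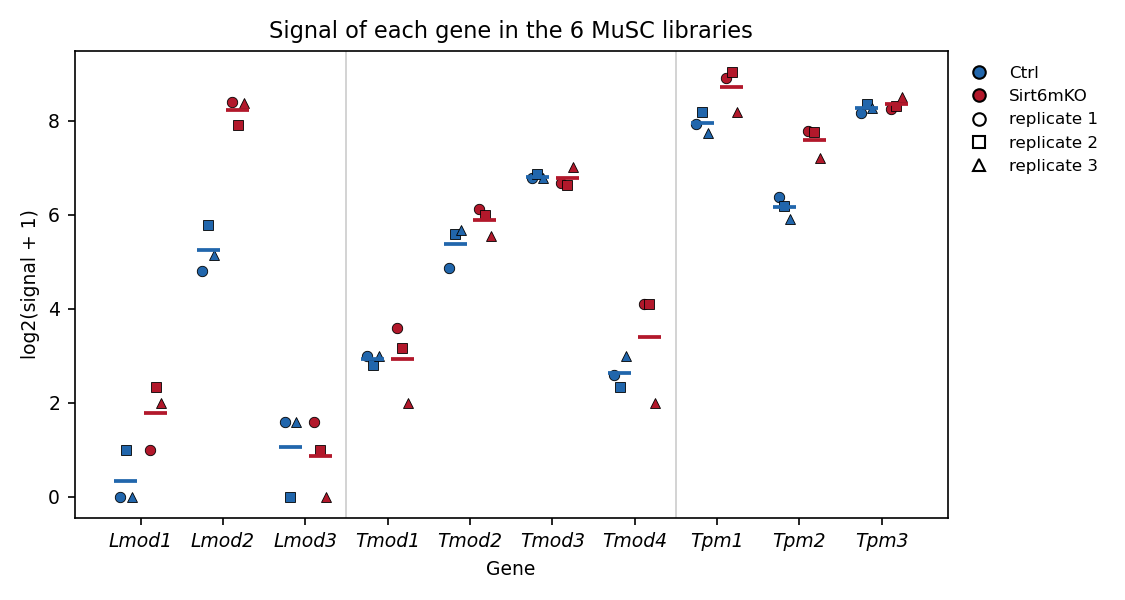
Signal of the 10 genes in each library, as log2(signal + 1) on the y axis, with Ctrl in blue, Sirt6mKO in red, a symbol for each replicate number and a line at the mean of each group of 3. The groups are apart for *Lmod2*, *Tpm1* and *Tpm2*, and they overlap for the other 7 genes.

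*Lmod2* (ENSMUSG00000029683, GRCm38 chromosome 6, 24597762 to 24605414, plus strand) was the only leiomodin with a level that could be compared. Its signal was 336, 240 and 331 in Sirt6mKO against 27, 54 and 34 in Ctrl. The lowest Sirt6mKO library was thus far above the highest control library, which was Ctrl replicate 2. The mean was 302.33 ± 54.04 (SD, n = 3) against 38.33 ± 14.01 (SD, n = 3), a log2 fold change of 2.99 (SE 0.23, 95% interval 2.49 to 3.49) and a fold of 7.94. About 322 to 404 reads lay behind the Sirt6mKO values and about 19 to 74 behind the control values. In such bulk samples, more cells that express a gene and more RNA per cell cannot be told apart.

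The other leiomodins were near the limit of detection. *Lmod1* (ENSMUSG00000048096, chromosome 1, 135324807 to 135368065), the smooth muscle leiomodin, had a signal of 1, 4 and 3 in Sirt6mKO against 0, 1 and 0 in Ctrl, which stand for about 1, 5 and 3 reads against 0, 1 and 0. *Lmod3* (ENSMUSG00000044086, chromosome 6, 97238534 to 97252759), the leiomodin of skeletal muscle, had 2, 1 and 0 against 2, 0 and 2. Counting alone allows up to 3 reads where a library has 0, a signal of 2.19 to 5.38. A difference of a few reads in either gene was therefore not detectable at this depth. No library held more than about 5 reads of *Lmod1* or about 2 of *Lmod3*. Neither gene was tested.

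Among the tropomodulins no gene was called, and in each of the 4 the groups overlapped. *Tmod3* (ENSMUSG00000058587, chromosome 9, 75497707 to 75559657), the widely expressed member, had the highest signal of the family, with 101, 98 and 129 in Sirt6mKO against 108, 115 and 109 in Ctrl. Its log2 fold change was -0.03 (SE 0.15, limma-trend adjusted p = 0.953), with a 95% interval of -0.36 to 0.30 that leaves no room for a 2-fold difference. The sign of this value turned under upper quartile scaling, to 0.06, and without Sirt6mKO replicate 1 or 2.

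*Tmod2* (ENSMUSG00000032186, chromosome 9, 75565621 to 75611325), known from neurons, had a signal of 68, 63 and 46 in Sirt6mKO against 28, 47 and 50 in Ctrl. Sirt6mKO replicate 3 lay below Ctrl replicates 2 and 3, and the log2 fold change of 0.52 (SE 0.25) did not pass the test (limma-trend adjusted p = 0.303). *Tmod4* (ENSMUSG00000005628, chromosome 3, 95124476 to 95129209), the tropomodulin of skeletal muscle, had 16, 16 and 3 in Sirt6mKO against 5, 4 and 7 in Ctrl. Here replicates 1 and 2 of Sirt6mKO were above every control and replicate 3 was below every control. These values stand for about 19, 21 and 3 reads against 4, 5 and 4. The distance of replicate 3 from the controls is thus within counting error. The log2 fold change of 0.76 (SE 0.56, limma-trend adjusted p = 0.537) became 1.45 without Sirt6mKO replicate 3 (limma-trend adjusted p = 0.127).

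*Tmod1* (ENSMUSG00000028328, chromosome 4, 46038935 to 46116032), the cap of the heart and the red blood cell skeleton, was low, with a signal of 11, 8 and 3 in Sirt6mKO against 7, 6 and 7 in Ctrl. The fitted difference of -0.02 (SE 0.48, limma-trend adjusted p = 0.991) had a 95% interval of -1.06 to 1.02 and took either sign between alternatives, so it is not resolved to within 2-fold. An exon of *Tmod1* overlaps *Tstd2* on the opposite strand, and 30.78% of its distinct 75-base words also occur in that gene. Whether counting used the strand is not given in the sources used here, so part of the reads of *Tmod1* may have been left out or may belong to *Tstd2*. Red blood cells carry *Tmod1*, and the alpha-globin gene *Hba-a1* was highest in Ctrl replicate 2, with a signal of 242 against 5 to 36 in the other libraries. The part of red blood cells in the values of *Tmod1* was not tested.

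The tropomyosins differed among themselves. *Tpm2* (ENSMUSG00000028464, chromosome 4, 43514711 to 43523765, minus strand), the beta-tropomyosin of striated muscle, had a signal of 220, 216 and 147 in Sirt6mKO against 82, 72 and 59 in Ctrl. All Sirt6mKO libraries were above the highest control, and replicate 3 was the lowest of them. The mean was 194.33 ± 41.04 against 71.0 ± 11.53 (SD, n = 3 per group), which is a log2 fold change of 1.43 (SE 0.19, 95% interval 1.03 to 1.83), and it ran from 1.30 to 1.62 with 1 library left out.

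*Tpm1* (ENSMUSG00000032366, chromosome 9, 67022590 to 67049406, minus strand), the alpha-tropomyosin, had a signal of 475, 523 and 291 in Sirt6mKO against 244, 288 and 213 in Ctrl. The groups were only just apart, with 291 in Sirt6mKO replicate 3 and 288 in Ctrl replicate 2. The mean was 429.67 ± 122.46 against 248.33 ± 37.69 (SD, n = 3 per group), which is a log2 fold change of 0.76 (SE 0.19, limma-trend adjusted p = 0.0464). This adjusted p was at or under 0.05 in 5 of 14 alternatives and ran from 0.00433 to 0.227 over them. It was 0.00433 without Sirt6mKO replicate 3, where the log2 fold change was 1.01 and the gene was called, and 0.227 and 0.216 without Sirt6mKO replicates 1 and 2. Without Ctrl replicate 1, 2 or 3 it was 0.101, 0.0653 and 0.136. The annotation lists 21 transcripts of *Tpm1*, from smooth muscle, striated muscle and non-muscle cells, and the table gives a single value for the gene.

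*Tpm3* (ENSMUSG00000027940, chromosome 3, 90072649 to 90100902), which gives rise to the slow-muscle tropomyosin and to cytoskeletal forms, had a signal of 303, 316 and 362 in Sirt6mKO against 287, 327 and 307 in Ctrl. The groups overlapped, and the log2 fold change was 0.09 (SE 0.12, 95% interval -0.17 to 0.34, limma-trend adjusted p = 0.762). Its transcripts share 19.15% of their 75-base words with the retrogene *Tpm3-rs7*, so its value is uncertain to the extent that reads on both were left out. *Tpm4*, the cytoskeletal tropomyosin outside the selection, had 774, 632 and 672 against 620, 536 and 568. These groups did not overlap either, but the log2 fold change of 0.27 (SE 0.11) did not pass the test (limma-trend adjusted p = 0.239). Of the 75-base words of *Tpm4*, 12.12% also occur in other genes, with 9.11% in *Gm7809* and 3.01% in *Gm26586*, whose exon overlaps it on the opposite strand. The GENCODE span of *Tpm4* also differs from the deposited one. Its level per kb, and the family sums and shares that include it, are uncertain to that extent. No words of 75 bases are shared with other genes by *Lmod1*, *Lmod2*, *Lmod3*, *Tmod2*, *Tmod4*, *Tpm1* or *Tpm2*.

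**Figure D2:**
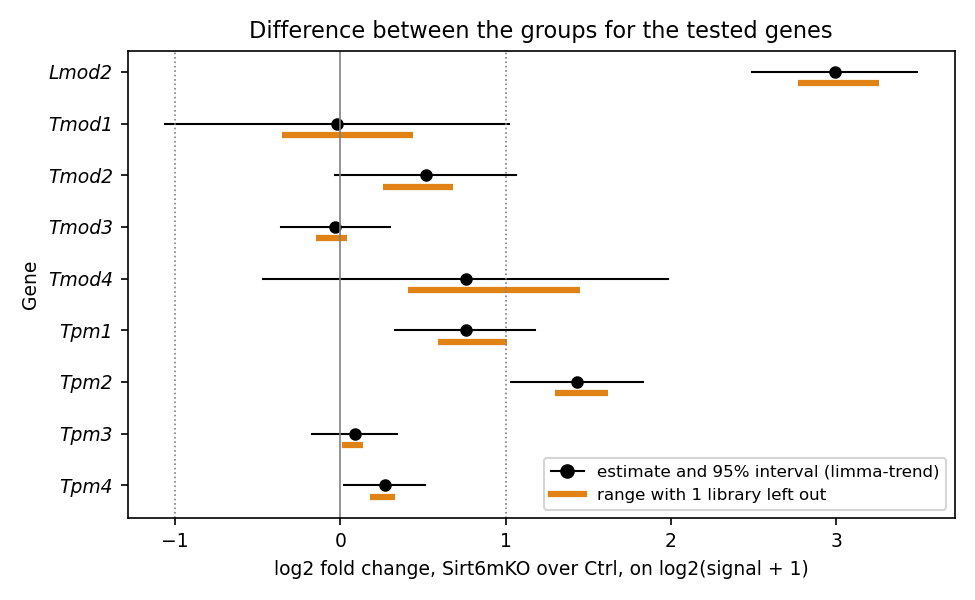
Log2 fold change of Sirt6mKO over Ctrl for the 8 tested genes and *Tpm4*, on the x axis, as points with 95% intervals from limma-trend in black and the range over the 6 fits that leave out 1 library in orange. Dotted lines mark a 2-fold difference. *Lmod2* at 2.99 and *Tpm2* at 1.43 were chosen because they rise, so their intervals are a description and not a test. The intervals of *Tmod1*, *Tmod2*, *Tmod3*, *Tmod4* and *Tpm3* include 0.

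The sequences in front of the 3 genes whose groups were apart are shown because they are the stretches where a shared motif would be looked for. They come from RefSeq on GRCm38.p6 and run from 250 bases before to 25 bases after the RefSeq start of the gene, 5′ to 3′ on the strand of the gene. The windows are chr6:24597521-24597795 on the plus strand for *Lmod2*, chr4:43523530-43523804 on the minus strand for *Tpm2* and chr9:67049189-67049463 on the minus strand for *Tpm1*. The RefSeq starts lie 9, 211 and 193 bases inside the GENCODE span of *Lmod2*, *Tpm2* and *Tpm1*. Capitals mark E-boxes, CANNTG, the motif that myogenic factors such as MYOD bind.
Lmod2: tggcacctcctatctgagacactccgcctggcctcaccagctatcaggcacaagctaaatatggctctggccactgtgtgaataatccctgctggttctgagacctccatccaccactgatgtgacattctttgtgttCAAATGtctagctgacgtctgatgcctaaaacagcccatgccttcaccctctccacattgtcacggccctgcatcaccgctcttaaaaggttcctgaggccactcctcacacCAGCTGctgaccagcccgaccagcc
Tpm2: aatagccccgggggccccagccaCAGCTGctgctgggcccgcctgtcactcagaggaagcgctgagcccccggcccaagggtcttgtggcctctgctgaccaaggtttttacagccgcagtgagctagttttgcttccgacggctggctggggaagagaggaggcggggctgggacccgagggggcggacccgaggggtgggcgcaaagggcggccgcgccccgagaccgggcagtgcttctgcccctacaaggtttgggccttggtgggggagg
Tpm1: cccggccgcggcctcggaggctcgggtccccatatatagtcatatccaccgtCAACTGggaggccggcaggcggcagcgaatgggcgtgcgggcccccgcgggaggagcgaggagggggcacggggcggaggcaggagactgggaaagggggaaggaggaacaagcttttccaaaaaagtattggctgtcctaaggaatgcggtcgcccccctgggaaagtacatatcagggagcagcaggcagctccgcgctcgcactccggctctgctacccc

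Within these windows *Lmod2* had an E-box that begins 112 bases before the start (CAAATG) and another at the start itself (CAGCTG). *Tpm2* had 1, 227 bases before its start (CAGCTG), and *Tpm1* had 1, 198 bases before (CAACTG). An E-box is common, being found in 72.3% of the 32851 RefSeq promoters of 300 bases (250 before and 50 after the start). The same search on both strands looked for exact matches to the CArG box of serum response factor (SRF), CCWWWWWWGG, the MEF2 motif, YTAWWWWTAR, and TATAAA. Here W is A or T, Y is C or T and R is A or G. Exact matches occur in 1.63, 3.19 and 13.6% of these promoters, in that order. No exact match to any of the 3 was found in the 300-base windows of *Lmod1*, *Lmod2*, *Tmod1*, *Tmod2*, *Tmod4*, *Tpm1*, *Tpm2*, *Tpm3* or *Tpm4*. Sites that deviate from these patterns were not searched for. The windows also differed in base content, with 55.3% G and C in *Lmod2*, 70.3% in *Tpm2* and 66.3% in *Tpm1*. *Lmod3* and *Tmod3* had no entry.

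To compare genes with each other, signal was divided by the length of the merged exons in kb. In the controls the order was *Tpm4* (260.9 per kb), *Tpm3* (50.5), *Tpm1* (38.3), *Tpm2* (24.4), *Lmod2* (19.4), *Tmod3* (9.92), *Tmod2* (3.57), *Tmod4* (3.11), *Tmod1* (1.69), *Lmod3* (0.602) and *Lmod1* (0.0844). Neighbours whose control libraries overlapped were *Tpm2* and *Lmod2*, *Tmod2* and *Tmod4*, and *Lmod3* and *Lmod1*. In the Sirt6mKO libraries *Lmod2*, at 153.0 ± 27.4 per kb (SD, n = 3), came after *Tpm4* at 314.4 per kb and before *Tpm2* and *Tpm1* at 66.8 and 66.3 per kb. *Tpm2*, *Tpm1* and *Tpm3* (53.7 per kb) overlapped from neighbour to neighbour there, and so did *Tmod3* (9.80), *Tmod4* (6.79) and *Tmod2* (5.05). Below them, *Tmod1* (1.86 per kb), *Lmod1* (0.675) and *Lmod3* (0.451) also overlapped with their neighbours. These ranks depend on the length used. With the longest transcript in place of merged exons, *Tmod3* was at 28.2 per kb in the controls and above *Lmod2*, which kept 19.4 because it has a single annotated transcript.

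Summed per kb, the leiomodins were at 171.2, 122.9 and 168.3 in Sirt6mKO and at 14.6, 27.6 and 18.1 in the controls. *Lmod2* made up 98.8 to 99.5% of this sum in Sirt6mKO and 93.8 to 99.1% in the controls, so the family sum is in effect the value of 1 gene. The tropomodulins summed to 23.5 ± 4.81 per kb against 18.3 ± 1.57, and the tropomyosins, with *Tpm4*, to 501.2 ± 45.5 against 374.0 ± 17.8 (SD, n = 3 per group). No test was run on these sums, and the tropomodulin sums overlapped between the groups. The tropomyosin sums did not, with 459.9 per kb as the lowest Sirt6mKO value and 394.4 as the highest control value.

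Shares within a family show which gene carried it. *Tpm2* held 13.8, 15.0 and 11.0% of the tropomyosin signal per kb in Sirt6mKO and 7.15, 6.76 and 5.61% in the controls. *Tpm4* held the largest share in every library, 58.1 to 66.3% in Sirt6mKO and 66.4 to 71.4% in the controls. *Tpm1* held 9.76 to 16.3% against 9.09 to 12.1%, and *Tpm3* 9.05 to 12.9% against 11.96 to 14.7%, each with overlapping groups. Among the tropomodulins, Sirt6mKO replicates 1 and 2 stood apart from replicate 3 and from the controls. *Tmod4* held 34.5 and 36.5% of the tropomodulin signal per kb in Sirt6mKO replicates 1 and 2 but 9.70% in replicate 3, and 12.8 to 20.5% in the controls. The 9.70% rests on about 3 reads. *Tmod3* held 33.6 and 34.4% in the same 2 libraries, 64.2% in replicate 3 and 49.1 to 57.8% in the controls.

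**Figure D3:**
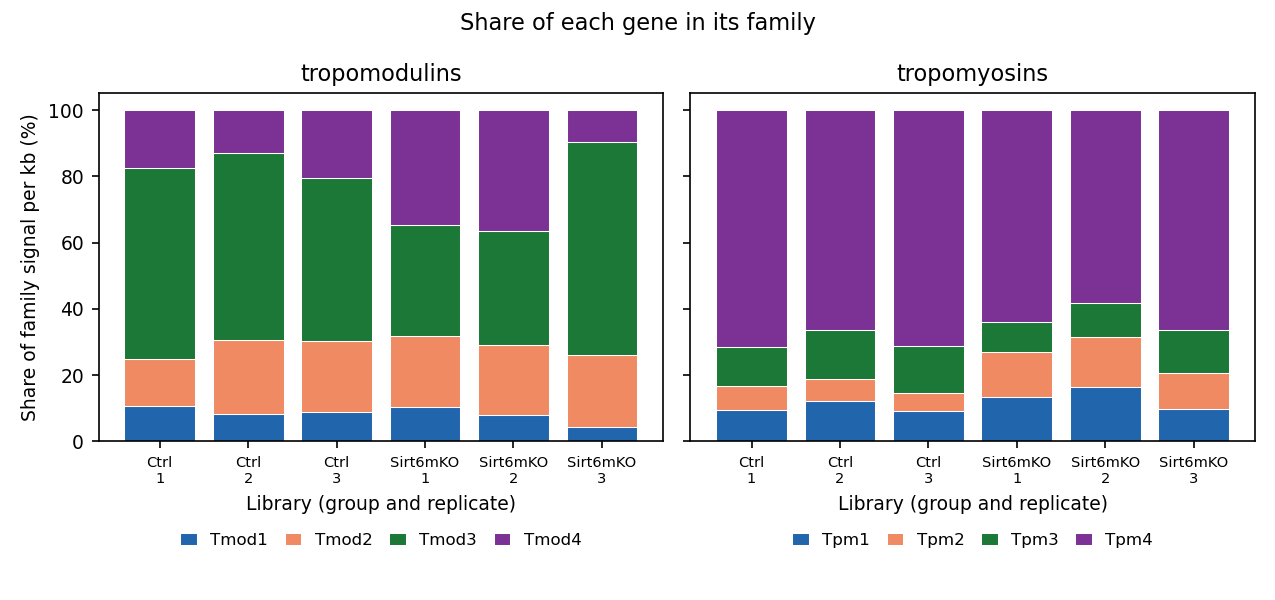
Share of each gene in the summed signal per kb of its family (y axis, %), in each of the 6 libraries (x axis), for the tropomodulins at the left and the tropomyosins with *Tpm4* at the right. The share of *Tpm2* is 11.0 to 15.0% in the Sirt6mKO libraries and 5.61 to 7.15% in the controls. *Tmod4* is at 9.70% in Sirt6mKO replicate 3, a value that rests on about 3 reads.

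The genes also differed in how evenly the 3 Sirt6mKO libraries moved. Against the mean of the controls, *Lmod2* was higher by 3.16, 2.67 and 3.14 on the log2 scale in Sirt6mKO replicates 1, 2 and 3, so it was as high in replicate 3 as in the others. *Tpm2* was higher by 1.63, 1.60 and 1.05, and *Tpm1* by 0.94, 1.08 and 0.24. *Tmod4* was higher by 1.45 in both replicates 1 and 2 and stood at -0.64 in replicate 3, and *Tmod1* was at 0.65, 0.23 and -0.94. The values of *Tmod3* were -0.13, -0.17 and 0.22, and those of *Tpm3* -0.02, 0.04 and 0.24.

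Markers of myofibers, the differentiated cells that a MuSC sort is meant to leave out, were likewise higher by their median in Sirt6mKO replicates 1 and 2 than in replicate 3. So were *Tpm1*, *Tpm2*, *Tmod1*, *Tmod2* and *Tmod4*, whereas *Tmod3* and *Tpm3* were highest in replicate 3. *Lmod2* was nearly equal in replicates 1 and 3. Over the 17 tested of 21 listed markers the median deviation from the control mean was 1.19, 1.12 and 0.16 in Sirt6mKO replicates 1, 2 and 3 and -0.13 to 0.14 in the controls. Their summed signal was 4492, 4616 and 3127 in Sirt6mKO and 2404 to 2743 in the controls, and no listed marker was at 0 in all libraries. Called higher were *Mybpc2*, a myosin-binding protein of fast fibers (log2 fold change 2.45, limma-trend adjusted p = 0.00881), *Mylpf*, the fast regulatory light chain (2.15, adjusted p = 0.0182), and *Casq1*, the calcium store protein of the sarcoplasmic reticulum (1.43, adjusted p = 0.0243). None was called lower and the list's median was 0.89. Of the 17 tested, 8 lay wholly above the controls and 1 wholly below, against 11.1 and 10.1% of all tested genes. The lower gene was *Pygm*, at 250, 284 and 224 in Sirt6mKO against 336, 387 and 287 in Ctrl (-0.41, limma-trend adjusted p = 0.13). It is named after its values were seen. The 2 markers with the highest signal were *Mybpc1* (0.16, limma-trend adjusted p = 0.604) and *Ttn*, the giant spring of the sarcomere (0.90, adjusted p = 0.0103). *Mybpc1* did not follow the median, with 680, 714 and 737 in Sirt6mKO against 501, 682 and 746 in Ctrl. Without Sirt6mKO replicate 1 or 2 no marker was called, without Ctrl replicate 2 there was 1, and without Sirt6mKO replicate 3 there were 10. Without that replicate *Lmod2* had a log2 fold change of 2.92 and *Tpm2* of 1.62. The part of myofiber RNA in the values of *Lmod2*, *Tpm1*, *Tpm2* and *Tmod4* was not tested.

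**Figure D4:**
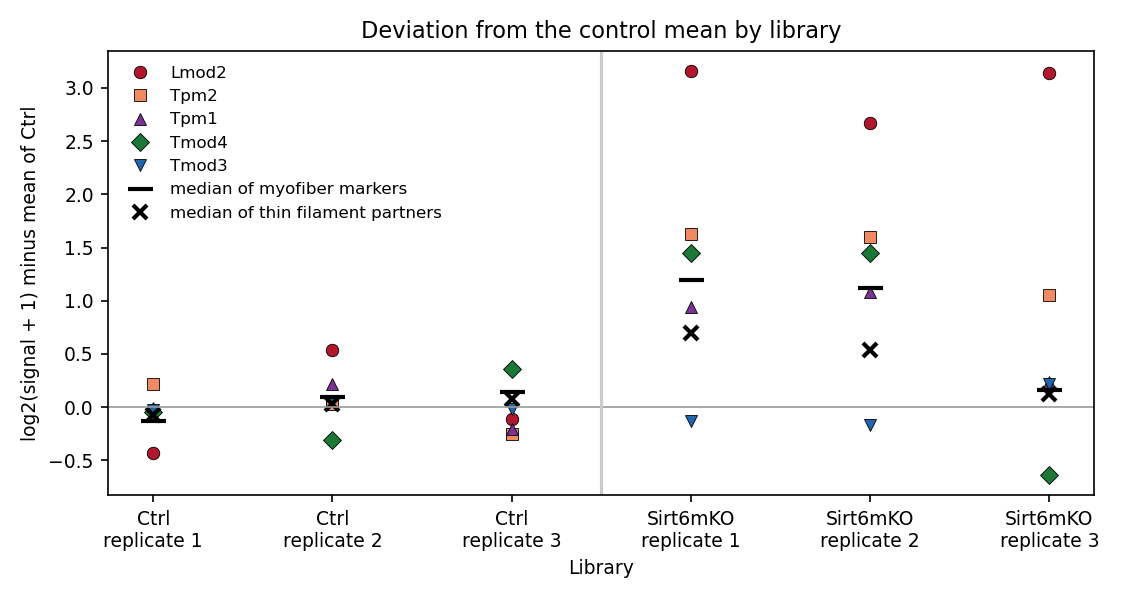
Deviation of log2(signal + 1) from the mean of the controls (y axis) in each library (x axis), for *Lmod2*, *Tpm2*, *Tpm1*, *Tmod4* and *Tmod3*, with the median over the myofiber markers as a bar and over the thin filament partners as a cross. In Sirt6mKO replicate 3 *Lmod2* is at 3.14 while the myofiber median is at 0.16 and *Tmod4* at -0.64, a value that rests on about 3 reads. Of the 17 tested myofiber markers behind the median, 8 lay above every control in each Sirt6mKO library.

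The partners of these proteins on the thin filament are the actins, the troponins, nebulin and its relatives, and the proteins that keep them in place. Of 25 listed genes, 18 were tested, 2 were called higher and 0 lower, against 1.57 and 1.02% of all tested genes, and the median log2 fold change was 0.46. *Xirp2*, an actin-binding protein of the muscle attachment sites, had a signal of 271, 221 and 44 in Sirt6mKO against 18, 22 and 16 in Ctrl (log2 fold change 2.84, SE 0.50, limma-trend adjusted p = 0.00686). *Acta1*, the skeletal muscle actin around which the sarcomeric thin filament is built, had 548, 656 and 143 against 118, 131 and 93 (log2 fold change 1.71, SE 0.42, limma-trend adjusted p = 0.0355). In both genes Sirt6mKO replicate 3 was far below the other two and still above the controls. *Neb*, the long protein along the thin filament, passed the adjusted p alone (log2 fold change 0.89, limma-trend adjusted p = 0.0306), and is named here after its values were seen.

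The most abundant partners were the cytoplasmic actins. *Actb* had a log2 fold change of -0.07 (SE 0.12, limma-trend adjusted p = 0.806) at a mean signal of 3678, and *Actg1* of -0.09 (SE 0.11, adjusted p = 0.725) at 971. The count of called partners rested on single libraries. It was 0 without Sirt6mKO replicate 1 or 2, 1 without Ctrl replicate 2, 6 without Sirt6mKO replicate 3, and 0 with limma voom on the recovered reads.

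**Figure D5:**
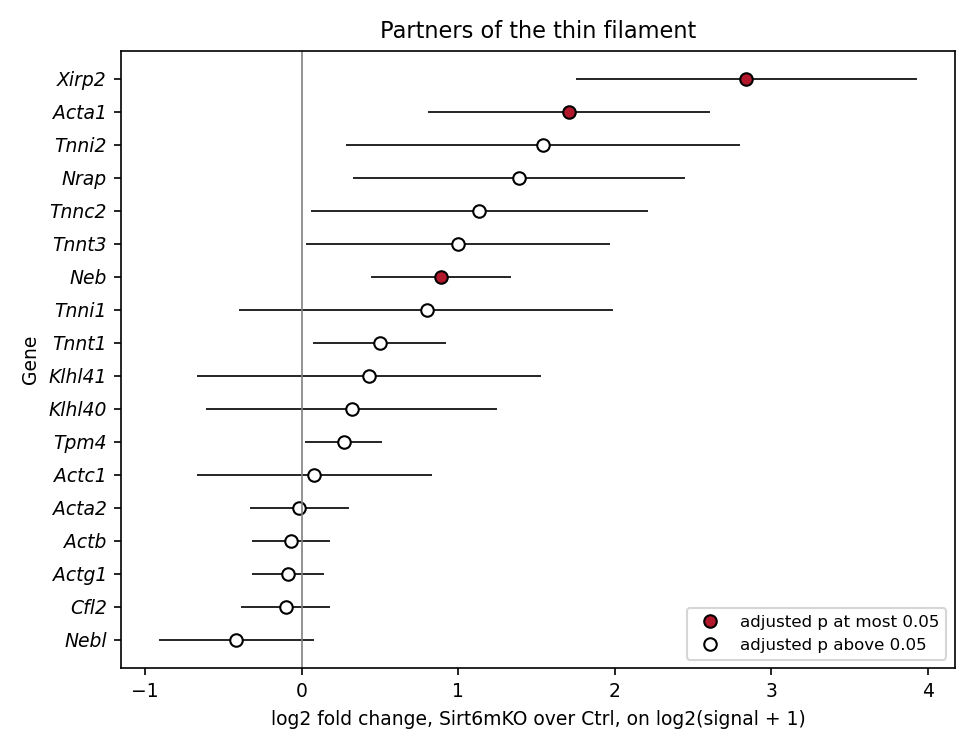
Log2 fold change of Sirt6mKO over Ctrl (x axis) with 95% intervals from limma-trend for the 18 tested partners of the thin filament. Filled points passed an adjusted p of 0.05, namely *Xirp2* at 2.84, *Acta1* at 1.71 and *Neb* at 0.89, and open points did not.

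Other proteins that act on filament ends and turnover, such as capping protein, cofilin, profilin, formins and adducins, formed a list of 31 genes, of which 30 were in the table and 28 tested. With limma-trend none was called in either direction and none passed the adjusted p alone. At an unadjusted p under 0.05 there were 6, and with limma voom on the recovered reads 0 were called. The median log2 fold change was 0.05, with values from -1.0 to 0.55. The most abundant were *Gsn*, which severs and caps filaments at the barbed end (0.27, limma-trend adjusted p = 0.290), and *Add3*, an adducin of the membrane skeleton (0.09, adjusted p = 0.856). Without Sirt6mKO replicate 3, 1 of them was called lower.

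Actin and tropomyosin genes of muscle are known targets of SRF with its cofactors of the MRTF family, and of MEF2 factors, which class II histone deacetylases hold back. In a list of 14 such regulators 9 were tested and none was called by limma-trend in either direction, with 6 at an unadjusted p under 0.05 and 0 called with limma voom. By the adjusted p alone 2 were higher and 1 was lower, and the median log2 fold change was 0.10. The 2 most abundant were both lower in each Sirt6mKO library than in each control. They were *Hdac4*, a class II deacetylase (log2 fold change -0.39, limma-trend adjusted p = 0.0699), and *Fhl1*, a LIM protein of muscle (-0.63, adjusted p = 0.0169). *Mef2a*, at 0.73 (limma-trend adjusted p = 0.0108), and *Hdac5*, at 0.91 (adjusted p = 0.00745), were the genes higher by the adjusted p alone. *Srf* had a signal of 141, 153 and 109 in Sirt6mKO against 82, 98 and 102 in Ctrl, at a log2 fold change of 0.50 that did not pass the test (limma-trend adjusted p = 0.117). These last 3 genes are named after their values were seen. Under upper quartile scaling, and without Sirt6mKO replicate 1 or 3, 1 regulator was called higher.

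The cells were checked against markers of MuSCs and of other cells that the sort could hold. The reporting summary of the study gives a range of purity for sorted cells that were measured again. That range lies clearly below full purity, so other cells were present, and it is not given library by library. All 14 MuSC markers were tested and none was called by limma-trend in either direction, with 6 at an unadjusted p under 0.05 and 0 called with limma voom. By the adjusted p alone 1 was higher and 1 lower, against 2.64 and 1.88% of all tested genes, and the median log2 fold change was -0.18. Their summed signal was 16834 to 17877 in Sirt6mKO and 19051 to 20268 in the controls, and the most abundant were *Chodl*, at a mean of 2852, and *Pax7*, the defining factor (log2 fold change -0.84, limma-trend adjusted p = 0.00412). The higher gene was *Cd34*, with 690, 855 and 882 in Sirt6mKO against 439, 605 and 563 in Ctrl (0.60, limma-trend adjusted p = 0.0309). It is named after its values were seen. Of 10 early fusion and differentiation markers 7 were tested and none was called by limma-trend on all 6 libraries or by limma voom (3 at an unadjusted p under 0.05), with a median of 0.04, values from -1.35 to 1.74, summed signals of 1964 to 2282 against 2125 to 2193, and *Cdh15* and *Chrna1* as the most abundant. The list held genes on both sides, none past the adjusted p, with *Myog*, a factor of differentiation, at -1.35 (limma-trend adjusted p = 0.147), the fusion gene *Mymk* at -1.21 (adjusted p = 0.189) and *Mef2c* at 1.74 (adjusted p = 0.147), named after their values were seen. Without Sirt6mKO replicate 3, 1 of the list was called higher and 1 lower.

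Smooth muscle cells express *Lmod1*, *Tpm1* and *Tpm2*. Of 14 smooth muscle and pericyte markers 13 were in the table and 12 tested, with 1 called higher and 0 lower by limma-trend, and a median of 0.22 with values from -1.10 to 1.60. With limma voom, and without Sirt6mKO replicate 3, Ctrl replicate 1 or Ctrl replicate 3, 1 was also called lower. The called gene was *Tagln*, an actin-binding protein, with a signal of 717, 670 and 817 against 278, 206 and 244 (log2 fold change 1.60, SE 0.13, limma-trend adjusted p = 8e-05). The 2 most abundant were the receptor *Notch3*, at 0.61 (limma-trend adjusted p = 0.0562), and *Des*, the intermediate filament protein of muscle cells, at 0.59 (adjusted p = 0.0257). *Notch3* had a mean signal of 3505.5, above the 2770.5 of *Pax7*, while the listed *Rgs5* and *Pdgfrb* were at 28.8 and 16.0. Which cells gave the signal of *Notch3* and *Des* was not tested. The summed signal of the list was 8049 to 8649 in Sirt6mKO and 4785 to 6239 in the controls, of which *Notch3* made up 3688 to 4873 against 2112 to 3289 and *Des* 2026 to 2483 against 1309 to 1794. On the other side, *Mcam*, an adhesion molecule of vessel walls, had 57, 51 and 66 in Sirt6mKO against 93, 149 and 111 in Ctrl (log2 fold change -0.99, SE 0.19, limma-trend adjusted p = 0.0122), and *Abcc9*, a channel subunit of pericytes, had 9, 22 and 18 against 46, 32 and 27 (-1.10, adjusted p = 0.0978). The defining smooth muscle myosin *Myh11* had 3, 15 and 9 in Sirt6mKO against 11, 9 and 5 in Ctrl, and the smooth muscle leiomodin *Lmod1* was at 4 or less everywhere. *Rgs5* (log2 fold change 0.53), *Synpo2* (0.45) and *Cspg4* (0.35) were higher without passing the adjusted p, and *Acta2* was at -0.02. Of the 12 tested, 7 had a log2 fold change above 0. *Myh11*, *Mcam*, *Abcc9*, *Rgs5*, *Pdgfrb*, *Synpo2*, *Cspg4* and *Acta2* are named after their values were seen.

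Of 13 fibroblast and tenocyte markers 12 were tested and 2 were called higher, the collagen gene *Col1a1* (log2 fold change 1.94, limma-trend adjusted p = 0.0472) and the receptor *Pdgfra* (2.16, adjusted p = 0.0274), with a median of 1.36. The groups of *Col1a1* overlapped, with 420, 1063 and 645 in Sirt6mKO against 487, 128 and 81 in Ctrl. Of the 12 tested, 11 had a log2 fold change above 0, and *Mkx*, named after its values were seen, was at -1.12 (limma-trend adjusted p = 0.371). The count of called markers was 0 without Sirt6mKO replicate 2 or 3 or without Ctrl replicate 2 or 3, and 4 without Sirt6mKO replicate 1. *Col3a1* and *Gsn* were the most abundant, and the summed signal was 12093 to 13960 in Sirt6mKO and 8850 to 13264 in the controls. The median deviation of this list was 0.35, 1.71 and 1.91 in Sirt6mKO replicates 1, 2 and 3, lowest in the library where the myofiber median was highest. None of the 6 tested of 8 erythroid, 2 tested of 6 endothelial and 2 tested of 4 immune markers in the table was called by limma-trend on all 6 libraries or by limma voom, with 2, 1 and 0 of them at an unadjusted p under 0.05. *Hba-a1* and *Ank1*, *Tek* and *Pecam1*, and *Cd68* and *Cd79a* were the most abundant of these lists. Summed signals in Sirt6mKO and in the controls were 583 to 631 against 635 to 1272 for the erythroid, 373 to 450 against 466 to 574 for the endothelial and 42 to 82 against 43 to 76 for the immune markers. Of these sums *Ank1* alone made up 564 to 599 against 604 to 719, and *Tek* alone 349 to 412 against 430 to 562. The erythroid sum of 1272 was that of Ctrl replicate 2, with 635 and 655 in Ctrl replicates 1 and 3. The part of these cells in the values of *Lmod2*, *Tpm1* and *Tpm2* was not tested.

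The genes with the most similar profile over the 6 libraries were sought among the other 7393 genes whose mean signal reached 50, by the root mean square difference of centred log2(signal + 1). For *Lmod2* they were *Ccl11* (0.59), a chemokine, *Sbsn* (0.64), *Trp63* (0.65), a transcription factor of the p53 family, *Sparcl1* (0.68), a matrix protein, and *Tns1* (0.69), which links integrins to actin. *Ccl11* had a signal of 242, 166 and 199 in Sirt6mKO against 16, 11 and 20 in Ctrl, so it lacked the higher value that *Lmod2* had in Ctrl replicate 2. For *Tpm2* the differences were smaller, with the chemokine *Cxcl1* (0.13), the costimulatory ligand *Icosl* (0.14), the extracellular superoxide dismutase *Sod3* (0.16), the laminin chain *Lama5* (0.19) and *Cyb561* (0.19), a cytochrome of vesicle membranes. *Cxcl1* had 175, 188 and 143 against 65, 63 and 59. These 10 genes were picked by their profile and are a description over 6 libraries, and none of them belongs to the lists of thin filament partners or filament ends.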

How the data were processed

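RNA was prepared from a small number of sorted cells. The labels name ribosomal depletion with RiboGone and the SMARTer Stranded kit, with single 75-base reads, whereas the methods name RiboMinus and an Ion Total RNA-Seq kit. The submitters' processing notes list Trimmomatic 0.39, STAR 2.7.10a, featureCounts 2.0.2 and DESeq2 1.30.1. The deposited signal is the authors' reads per gene, divided by a size factor of each library and rounded. It is not a count, so no count test was used. Factors of 0.558 to 1.371 were recovered from the gaps between occupied values.

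Genes were named as in the table, and positions and lengths came from GENCODE M21 on GRCm38, with 99.7% of identifiers found. The fit was limma-trend on log2(signal + 1) (limma 3.58.1, R 4.3.3) over all 6 libraries, without a block or further scaling, on genes with a mean of at least 5. The procedure was tested on simulated data. Tables and plots were made in Python 3.11.15 with numpy 2.4.6, pandas 2.3.3 and matplotlib 3.10.9. Floors are 3 reads and cover counting error only. An exact two-sided permutation test of 3 against 3 cannot go below 0.1.

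The selected genes, the lists and the alternatives were chosen with earlier results of these data known. Named are the 10 genes, *Sirt6*, *Tpm4*, the called and the 2 most abundant genes of each list, and the 5 genes most like *Lmod2* and *Tpm2*; others are said to be named after their values were seen.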

Additional observations from a re-analysis of the deposited data

How the results depend on the processing

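Alternatives were a pseudocount of 0.5 or 5, no filter or a mean signal of at least 50, median ratio and upper quartile scaling, limma voom on recovered reads (signal times the factor), the replicate number as a block, the longest transcript as length, and leaving out each library. *Tpm1* was called only without Sirt6mKO replicate 3, and of the other genes besides *Lmod2* and *Tpm2* none was called under any of the 14 alternatives that refit the table. *Lmod2* and *Tpm2* ran from 2.77 to 3.26 and from 1.30 to 1.62 over them, a description, since their rise chose them. The genes called across the table numbered 223 higher and 145 lower, 76 and 52 at a mean of at least 50, and 97 to 291 higher and 84 to 152 lower with 1 library left out. The higher count fell to 101 without Sirt6mKO replicate 1 and to 97 without Sirt6mKO replicate 2, and the lower count to 84, 96 and 90 without these and without Ctrl replicate 2. The cause was not tested beyond the smaller number of genes or libraries. The sign turned for *Tmod1*, to 0.02 at a pseudocount of 5, 0.06 under upper quartile scaling and -0.35 to 0.44 with 1 library left out, for *Tmod3*, to 0.06 under upper quartile scaling and -0.15 to 0.04, and for *Sirt6*, -0.21 to 0.09. Upper quartile scaling moved the median of all genes to 0.09. A mean of at least 50 left *Tmod1*, *Tmod4* and *Sirt6* without a value.

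Same-numbered libraries did not deviate together throughout, with correlations of 0.023, 0.066 and 0.188. Sirt6mKO replicate 1 correlated best with Ctrl replicate 2 (0.073). Sirt6mKO replicates 2 and 3 correlated best with their own numbers, replicate 2 only narrowly (0.063 with Ctrl replicate 1). The labels name no pairs, so the numbers were not taken as pairs, though a pairing is not excluded. With the replicate block, 268 genes were called higher and 167 lower, and the adjusted p of *Tpm1* was 0.00647, still under a 2-fold difference. In the marker lists the block called 6 myofiber and 4 fibroblast and tenocyte markers higher, and 2 erythroid markers and 1 early fusion marker lower. Without the block, limma voom called 1 myofiber marker, a mean of at least 50 called 0 myofiber and 0 fibroblast and tenocyte markers and 1 thin filament partner, and no filter called 0 fibroblast and tenocyte markers and 1 partner.

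With the longest transcript, control levels per kb were 129.3 for *Tpm3*, 85.9 for *Tpm1*, 32.6 for *Tpm2*, 4.23 for *Tmod4* and 2.11 for *Tmod1*. Depth limits *Lmod1*, *Lmod3*, *Tmod1* and *Tmod4*, for which 1 read of Ctrl replicate 3 is a signal of 1.792.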
